A study of Homo sapiens with 6 samples.

Results

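The collagen chain genes are the loci of the gene count table whose symbol is COL, a number, the letter A and a number with nothing after it, and 44 of the 22354 loci met this rule. They comprise 11 fibrillar genes, 6 basement membrane genes and 27 genes of other types. Collagens are the triple-helical proteins of the extracellular matrix. Each molecule is a trimer of alpha chains, and in many types the chains of one trimer are encoded by different genes, so that the balance between partner chains sets which trimers can form. In the thyroid, a basement membrane built on type IV collagen surrounds each follicle, and fibrillar collagen fills the connective tissue between follicles.

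RNA was sequenced from 6 libraries of HTori-3.1 (spelled Htoris-3.1 in the labels), a line of human thyroid follicular epithelial cells. Of these, 3 are labelled control with a wild type genotype and 3 are labelled BMAL1 knockout, made with a CRISPR-Cas9 virus against BMAL1, puromycin and picking of single clones. Etoposide, which breaks DNA by trapping topoisomerase, was given to all 6 at 2 μM, for 12 h by the treatment field and 24 h by the protocol. The comparison asks which genes differ when this clock transcription factor is targeted. The control-labelled libraries held 26893063, 27029060 and 28513703 counts, and the knockout-labelled libraries 43148059, 29860233 and 43563391. The sources used here do not say whether the libraries of a group came from separate cultures, or whether the knockout libraries share a clone. The p-values therefore measure only the spread between these libraries, and differences that arise with a single clone cannot be told apart from those of the edit. Likewise, RNA from bulk cells cannot tell fewer expressing cells from less RNA per cell.

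The targeted gene was checked first. BMAL1 had 304, 326 and 409 counts in control-labelled libraries and 764, 603 and 860 in knockout-labelled ones, which is 12.7 ± 1.70 and 19.0 ± 0.987 CPM (the usual count normalised to library total, with totals scaled by TMM, the trimmed mean of M values; SD, n = 3). The log2 fold change, the base 2 logarithm of the ratio of the groups, was 0.58 (edgeR quasi-likelihood test, Benjamini-Hochberg adjusted p = 0.0238, where an adjusted p under 0.05 keeps the expected share of false calls under 5%). The transcript was therefore higher, not lower, in the knockout-labelled libraries, and these counts alone do not bear out the label. An edited transcript can remain after the gene is cut, and the counts do not measure the protein. The paper reports a western blot of BMAL1 in its control and knockout lines, made to check the knockout. From its RNA data it reports lower NFKBIA and higher CDKN1A in the knockout group. These measures were not examined here. Every direction below is that of the libraries labelled BMAL1 knockout relative to those labelled control. Knockout replicate 1 stood apart from the other knockout-labelled libraries. Its counts differed from those of knockout replicates 2 and 3 by 31.0 and 45.0 times the variance that counting gives, against 7.43 between replicates 2 and 3 and 5.41 to 14.5 among the control libraries. This measure grows with depth, and it was not taken between the groups.

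Cell type markers were checked next. The thyroid transcription factor genes PAX8, FOXE1 and HHEX were read at 23872, 8592 and 2052 counts over the 6 libraries. The thyroid function genes TG, TSHR, SLC5A5 and DUOX2 had 44, 12, 26 and 14 counts, and NKX2-1 had 0. Of the fibroblast markers, DCN, LUM, PI16 and DPT were at 0 in all 6 libraries, while PDGFRB, TCF21, THY1, PDGFRA and FAP had 4025, 331, 102, 65 and 20 counts.

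Most of the collagen genes were either well expressed or nearly silent. Of the 44, 26 passed edgeR's default low-count filter and were tested, and 14 of these had a mean of at least 5 CPM. Another 17 were detected but too low to test, and COL22A1 had no count in any library, where 3 counts, the limit that a count of 0 allows, would be 0.0677 to 0.112 CPM. Of the 26 genes tested, 23 met the filter's minimum in every library, and none met it in 1 group alone. Reads on collagen genes made up 0.288%, 0.281% and 0.263% of all counts in control-labelled libraries and 0.222%, 0.285% and 0.294% in knockout-labelled libraries. The share was lowest in knockout replicate 1, and the groups overlapped. COL1A1, COL12A1, COL5A1 and COL4A2 together held between 70.1% and 72.4% of the collagen reads in every library.

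**Figure D1:**
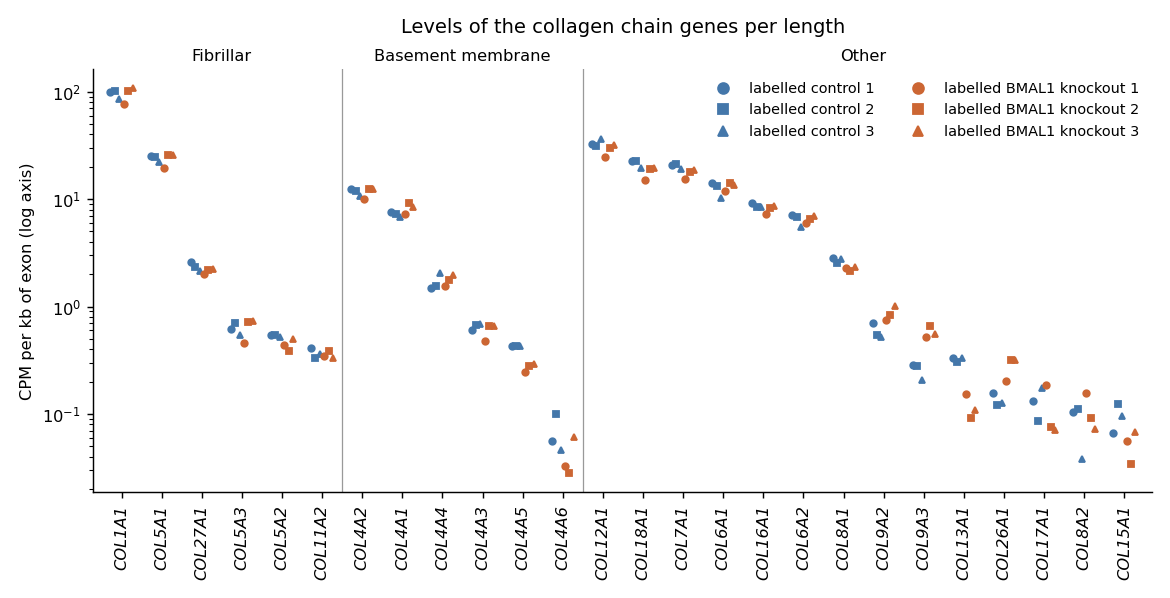
Level of the 26 collagen genes tested in each of the 6 libraries, as CPM per kilobase of annotated exon on a log axis, grouped by class and ordered by mean level. COL1A1 has the highest level at a mean of 95.4, and COL4A6 the lowest at 0.0541.

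Fibrillar collagens were led by COL1A1, the gene for the major chain of type I collagen, the main fibril of connective tissue. COL1A1 (ENSG00000108821.14; chromosome 17 of hg38, 50184101 to 50201632, reverse strand) was measured at 903, 906 and 770 CPM in control-labelled libraries and 699, 913 and 965 CPM in knockout-labelled libraries. The lowest and the highest value were both from knockout-labelled libraries, so the groups overlapped. Its log2 fold change was -0.00 (standard error 0.11, 95% interval -0.23 to 0.22), and the sign turned without control replicate 1, control replicate 2 or knockout replicate 1 and with several other settings. Per kilobase of exon, its mean level was 3.07 times that of COL12A1, the next collagen gene.

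The partner of COL1A1 was nearly silent. COL1A2, which encodes the second chain of the usual type I trimer, had 2 counts in control replicate 2 and 0 in the other 5 libraries. COL1A1 had 170552 counts over the same libraries. COL3A1, the gene of the type III homotrimer that commonly accompanies type I, had 1 count in all.

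Type V collagen, which sits inside type I fibrils and limits their diameter, showed a like imbalance. COL5A1 was measured at 280, 275 and 248 CPM in control-labelled libraries and 216, 287 and 286 CPM in knockout-labelled libraries, and its partner COL5A2 at 3.95, 3.96 and 3.78 CPM and at 3.21, 2.82 and 3.68 CPM. Per exon length the COL5A1 level was between 43.1 and 66.8 times that of COL5A2 in every library. COL5A2 was lower in all 3 knockout-labelled libraries, but its difference did not pass the test (log2 fold change -0.25, standard error 0.16, edgeR Benjamini-Hochberg adjusted p = 0.448). COL5A3, another type V chain, had a mean of 4.26 CPM and a log2 fold change of 0.02 (standard error 0.20), whose sign turned without control replicate 3, knockout replicate 2 or knockout replicate 3. COL27A1, a fibrillar chain of cartilage matrix, had a mean of 31.6 CPM and a log2 fold change of -0.14 (standard error 0.10), or -0.06 without control replicate 1. Of the 11 fibrillar genes, 6 were tested and 0 had an adjusted p under 0.05 by edgeR or an unadjusted p under 0.05, and DESeq2 and limma-voom also called 0. Of all 14860 loci, edgeR called 1.01% higher and 1.36% lower, and 1353 and 1153 had an unadjusted p under 0.05. Over all loci DESeq2 called 256 higher and 379 lower, and limma-voom 102 and 153. The remaining 5 fibrillar genes had 1 to 24 counts each over the 6 libraries. COL2A1, the chain of cartilage fibrils, had its 15 counts as 7 in knockout replicate 1 and 8 in knockout replicate 2. It had 0 in knockout replicate 3 and in the control-labelled libraries, and it was not tested. COL6A6, an untested gene of the other types, went the other way, at 2, 5 and 4 counts against 0, 1 and 3.

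All 6 genes of the basement membrane class, which encode the type IV chains, were tested. Their usual trimers pair COL4A1 with COL4A2, COL4A3 with COL4A4 and COL4A5, and COL4A5 with COL4A6. The genes lie in head-to-head pairs, each pair transcribed in opposite directions from neighbouring starts. By RefSeq start sites on GRCh38.p14, 126 bases separate COL4A1 and COL4A2 on chromosome 13, 418 separate COL4A4 and COL4A3 on chromosome 2, and 379 separate COL4A6 and COL4A5 on chromosome X. The stretch between COL4A1 and COL4A2 that lies outside annotated exons is shown because it lies between the starts of both genes, and 250 bases before COL4A5 because COL4A5 differed between groups. Both are on the forward strand, and capitals mark matches to GGGCGG or to CCAAT on either strand.
COL4A1 and COL4A2, chr13:110307158-110307257: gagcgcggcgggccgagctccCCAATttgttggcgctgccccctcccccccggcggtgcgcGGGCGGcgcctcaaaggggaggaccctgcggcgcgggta
COL4A5, chrX:108439588-108439837: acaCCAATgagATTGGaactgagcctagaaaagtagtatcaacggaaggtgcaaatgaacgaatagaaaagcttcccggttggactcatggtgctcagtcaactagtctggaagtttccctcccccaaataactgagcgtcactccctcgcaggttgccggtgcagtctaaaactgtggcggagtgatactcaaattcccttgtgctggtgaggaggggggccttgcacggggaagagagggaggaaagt
The first stretch holds 1 GGGCGG and 1 CCAAT and is 78.0% G and C, and the second holds 2 CCAAT and is 51.2% G and C.

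COL4A5 was downregulated. COL4A5 (ENSG00000188153.14; chromosome X, 108439838 to 108697545, forward strand) encodes the chain that both the trimer with COL4A3 and COL4A4 and the trimer with COL4A6 contain. It had 138, 136 and 143 counts in control-labelled libraries and 126, 102 and 153 in knockout-labelled libraries, or 5.14, 5.08 and 5.10 CPM against 2.95, 3.34 and 3.45 CPM. All 3 knockout-labelled libraries lay below all 3 control libraries (two-sided exact permutation test, p = 0.1, the smallest that 3 against 3 can give). The log2 fold change was -0.66 (standard error 0.14, edgeR Benjamini-Hochberg adjusted p = 0.0359). The call was marginal: without any one of the 6 libraries the edgeR Benjamini-Hochberg adjusted p lay between 0.0519 and 0.136, and over all alternatives between 0.0176 and 0.136. The call was also lost with limma-voom (0.0513), the replicate block (0.0735) and thinning to the smallest total (0.0522). In these fits the log2 fold change was -0.66, -0.66 and -0.62, and without any single library it lay between -0.71 and -0.59.

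COL4A6, the head-to-head neighbour of COL4A5, was low, at 14, 25 and 12 counts against 13, 8 and 25, and the log2 fold change was -0.67 (standard error 0.43, 95% interval -1.52 to 0.18). It moved to -0.28 without control replicate 2 and to -1.11 without knockout replicate 3. Its groups overlapped, and its interval holds both 0 and the value of COL4A5. The ratio of COL4A5 to COL4A6 per exon length ran from 4.25 to 9.32 in control-labelled libraries and from 4.79 to 9.97 in knockout-labelled libraries.

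The most abundant type IV genes were COL4A2 and COL4A1, whose products form the network common to nearly all basement membranes. COL4A2 (ENSG00000134871.19; chromosome 13, 110305812 to 110513209, forward strand) was measured at 241, 231 and 208 CPM against 192, 240 and 238 CPM in knockout-labelled libraries. COL4A1 (ENSG00000187498.16; chromosome 13, 110148963 to 110307157, reverse strand) was measured at 111, 107 and 99.4 CPM against 107, 136 and 123 CPM. Neither difference passed the test, with log2 fold changes of -0.02 (standard error 0.10) for COL4A2, whose sign turned without control replicate 1 or knockout replicate 1, and 0.20 (standard error 0.09, edgeR Benjamini-Hochberg adjusted p = 0.309) for COL4A1. Without knockout replicate 1, COL4A1 was called higher (log2 fold change 0.28, edgeR Benjamini-Hochberg adjusted p = 0.0487), while without knockout replicate 2 its log2 fold change was 0.12 (0.677), the ends of the range over its alternatives.

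The ratio of COL4A1 to COL4A2, which needs no scaling between libraries, separated the groups. Per exon length it was 0.607, 0.610 and 0.628 in control-labelled libraries and 0.731, 0.741 and 0.678 in knockout-labelled libraries. All 3 knockout-labelled libraries were higher, knockout replicate 1 among them, and the difference was 0.22 on the log2 scale, 1.16-fold (two-sided exact permutation test, p = 0.1, or 0.35 after Benjamini-Hochberg adjustment over the 7 pairs). Leaving out any library gave a difference between 0.20 and 0.26. COL4A2 overlaps antisense transcripts, and whether the counting used strand is not given in the sources used here.

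COL4A4 and COL4A3 were read at means of 20.6 and 7.70 CPM, with log2 fold changes of 0.04 (standard error 0.14) and -0.13 (standard error 0.15). The sign turned for COL4A4 without control replicate 1, control replicate 2 or knockout replicate 3, and for COL4A3 without knockout replicate 1. The ratio of COL4A3 to COL4A4 overlapped between groups, at 0.399, 0.432 and 0.331 against 0.310, 0.370 and 0.334.

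**Figure D2:**
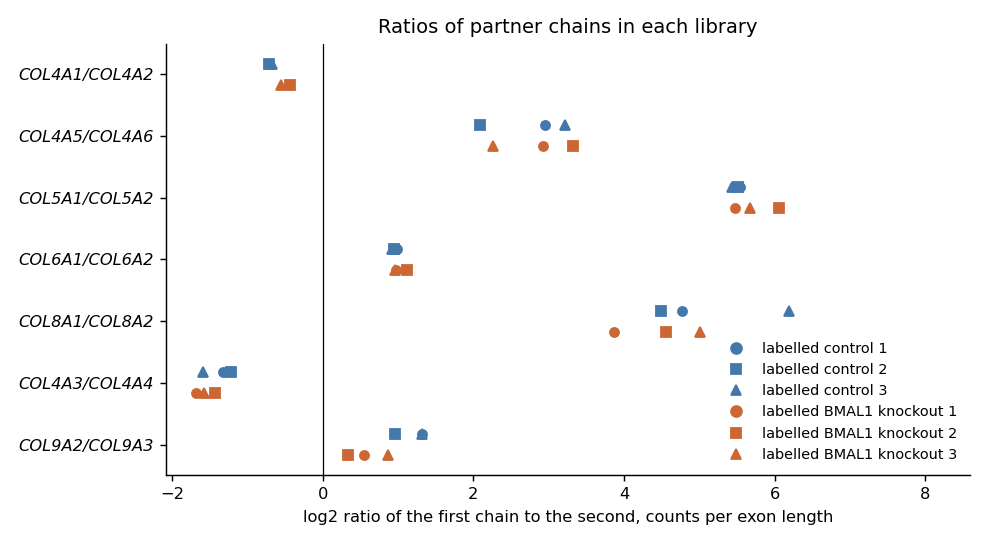
Log2 ratio of 2 partner chains, in counts per exon length, for 7 pairs in each of the 6 libraries. The groups separate for COL4A1/COL4A2 and COL9A2/COL9A3 and overlap for the other 5 pairs.

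Of the 27 genes of other types, 14 were tested, and both of the remaining called differences were among them. COL13A1 (ENSG00000197467.17; chromosome 10, 69801880 to 69964275, forward strand), a transmembrane collagen of cell adhesion sites, was downregulated. It had 102, 93 and 107 counts in control-labelled libraries and 75, 32 and 56 in knockout-labelled libraries, or 3.80, 3.48 and 3.82 CPM against 1.76, 1.05 and 1.26 CPM. The highest knockout-labelled library was below the lowest control library (two-sided exact permutation test, p = 0.1). The log2 fold change was -1.42 (standard error 0.20, 95% interval -1.82 to -1.02, edgeR Benjamini-Hochberg adjusted p = 0.00470). The edgeR Benjamini-Hochberg adjusted p was under 0.05 in all 6 fits that left out a library, from 0.00224 to 0.0448. The 224 bases before its first annotated exon (RefSeq, GRCh38.p14, forward strand) are shown with capitals at the TATAAA match, and they hold 0 matches to GGGCGG and CCAAT.
COL13A1, chr10:69801656-69801879: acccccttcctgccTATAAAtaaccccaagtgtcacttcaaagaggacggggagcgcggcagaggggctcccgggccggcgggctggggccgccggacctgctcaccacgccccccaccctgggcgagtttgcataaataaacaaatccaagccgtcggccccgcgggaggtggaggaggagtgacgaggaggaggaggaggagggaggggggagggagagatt

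COL9A3 (ENSG00000092758.18; chromosome 20, 62816244 to 62841159, forward strand) was upregulated. It encodes a chain of type IX collagen, which coats fibrils, mainly in cartilage. It had 37, 36 and 28 counts in control-labelled libraries and 107, 98 and 120 in knockout-labelled libraries, or 1.38, 1.35 and 0.999 CPM against 2.51, 3.21 and 2.71 CPM. All 3 knockout-labelled libraries lay above all 3 control libraries (two-sided exact permutation test, p = 0.1). The log2 fold change was 1.16 (standard error 0.21, 95% interval 0.75 to 1.58, edgeR Benjamini-Hochberg adjusted p = 0.0167). The edgeR Benjamini-Hochberg adjusted p rose to 0.0666 without control replicate 2, 0.0851 without control replicate 3 and 0.0507 without knockout replicate 2, and over all alternatives it lay between 0.00550 and 0.0851. COL9A3 shares exon sequence with TCFL5 on the opposite strand, which was measured at 35.9 ± 1.01 and 36.2 ± 1.42 CPM (SD, n = 3) and had a log2 fold change of 0.01 (standard error 0.08).

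Its partner COL9A2 had 80, 61 and 61 counts against 136, 108 and 191, or 2.98, 2.28 and 2.18 CPM against 3.18, 3.54 and 4.31 CPM. It was higher in all 3 knockout-labelled libraries, but did not pass the test (log2 fold change 0.57, standard error 0.19, edgeR Benjamini-Hochberg adjusted p = 0.149). COL9A1, the gene of the remaining type IX chain, had 2 counts in all. The ratio of COL9A2 to COL9A3 per exon length was 2.48, 1.95 and 2.50 against 1.46, 1.27 and 1.83, lower in all 3 knockout-labelled libraries (difference -0.61 on the log2 scale, two-sided exact permutation test, p = 0.1, or 0.35 after Benjamini-Hochberg adjustment over the 7 pairs). COL26A1, a small collagen named here after its values were seen, had 13, 10 and 11 counts against 27, 30 and 44 and did not pass the test (log2 fold change 1.04, standard error 0.35, edgeR Benjamini-Hochberg adjusted p = 0.149).

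**Figure D3:**
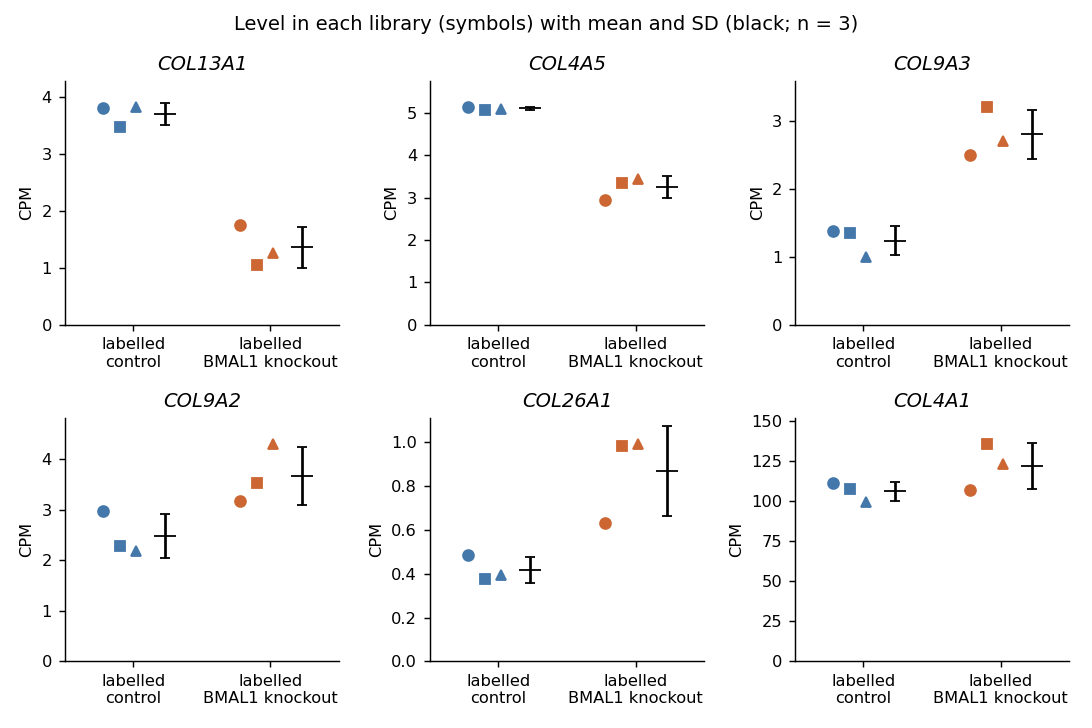
CPM of 6 collagen genes in each library (circle, square and triangle for replicates 1, 2 and 3; blue labelled control, orange labelled BMAL1 knockout), with the mean and SD in black, n = 3. The groups do not overlap for COL13A1, COL4A5, COL9A3, COL9A2 and COL26A1, and they overlap for COL4A1, whose knockout replicate 1 is at 107 CPM.

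Several abundant genes of this class were lower without passing the test. COL7A1, whose product forms the anchoring fibrils that tie a basement membrane to the matrix beneath, was measured at 233, 238 and 212 CPM against 172, 198 and 206 CPM. COL18A1, a basement membrane proteoglycan and the source of endostatin, was measured at 191, 193 and 166 CPM against 129, 162 and 166 CPM. COL8A1, a chain of the short network collagen of vessel walls and the cornea, was measured at 26.7, 23.8 and 26.2 CPM against 21.3, 20.1 and 22.0 CPM. The groups did not overlap for COL7A1 and COL8A1 and overlapped for COL18A1, whose knockout replicate 3 was above control replicate 3. Their log2 fold changes were -0.24 (standard error 0.09), -0.27 (standard error 0.10) and -0.27 (standard error 0.09), with adjusted p of 0.179, 0.213 and 0.153 from edgeR with Benjamini-Hochberg adjustment. Once the trend of expression with exon GC content had been removed from every library, COL7A1 and COL18A1 were called lower, with edgeR Benjamini-Hochberg adjusted p of 0.0288 and 0.0234, within ranges of 0.0288 to 0.481 and 0.0234 to 0.512 over all alternatives. The value of COL18A1 moved to -0.16 without knockout replicate 1. COL18A1 shares exon sequence with SLC19A1 on the opposite strand, which was called lower (log2 fold change -0.44, standard error 0.10, edgeR Benjamini-Hochberg adjusted p = 0.0498). COL18A1 spans 45405165 to 45513720 on chromosome 21, and SLC19A1 spans 45493572 to 45573365. Only reads in the shared part cannot be told apart without strand.

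COL12A1, a fibril-associated collagen that links fibrils to other matrix proteins, had the second highest level. It was measured at 609, 587 and 691 CPM in control-labelled libraries and 465, 562 and 605 CPM in knockout-labelled libraries, and the log2 fold change was -0.21 (standard error 0.10, 95% interval -0.41 to -0.01, edgeR Benjamini-Hochberg adjusted p = 0.324). Knockout replicate 1 was lowest, and the groups overlapped. The value moved to -0.11 without knockout replicate 1 and to -0.13 without control replicate 3. COL16A1, another fibril-associated chain, had a mean of 77.3 CPM and a log2 fold change of -0.13 (standard error 0.09), or -0.06 without knockout replicate 1.

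Type VI collagen, which forms beaded filaments around cells, was present as 2 of its usual 3 chains. COL6A1 and COL6A2 were measured at means of 71.2 and 34.6 CPM, with log2 fold changes of 0.07 (standard error 0.11) and 0.00 (standard error 0.11). Both signs turned without control replicate 3, and that of COL6A2 also without knockout replicate 3 and with other scaling. Their ratio per exon length stayed between 1.89 and 2.17 in all 6 libraries. COL6A3, the gene of the remaining large chain, had 7 counts over the 6 libraries, and COL6A1 had 14158. COL8A2, the partner of COL8A1, had 5 to 31 counts per library and a log2 fold change of 0.35 (standard error 0.47), whose sign turned without control replicate 3 or knockout replicate 1. COL17A1 and COL15A1, the other 2 genes of this class that were tested, had 168 and 95 counts in all. Neither passed the test, with log2 fold changes of -0.22 (standard error 0.42) and -0.80 (standard error 0.39). The 13 genes of this class that were not tested had 0 to 55 counts over the 6 libraries, and at most 21 in one library.

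**Figure D4:**
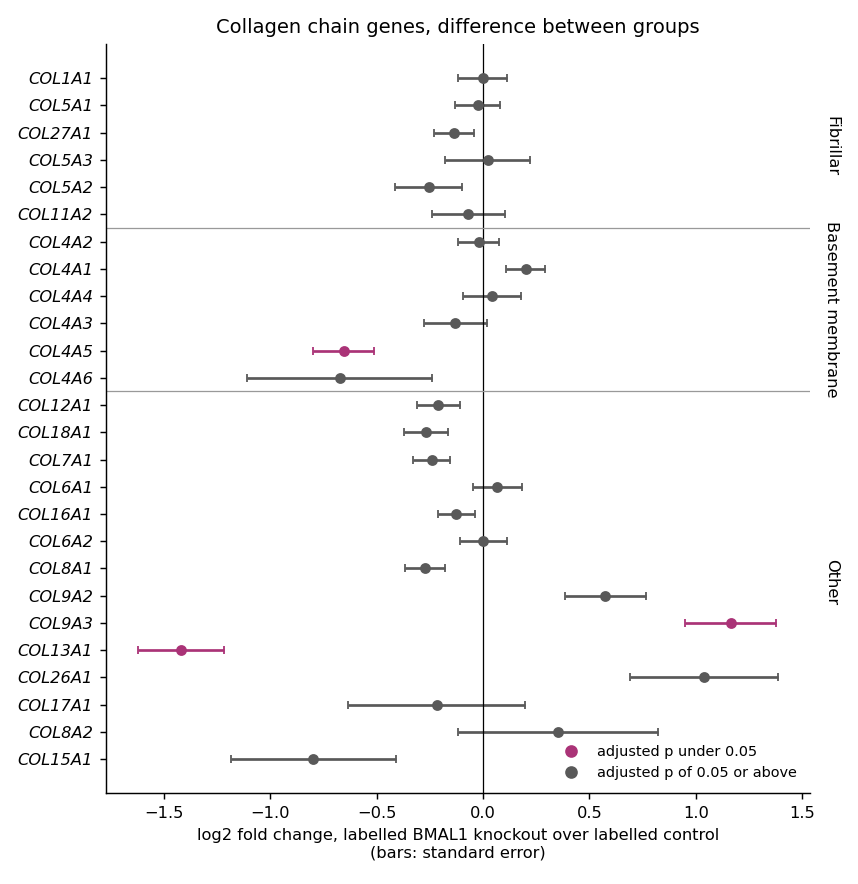
Log2 fold change of the 26 collagen genes tested, as the knockout-labelled over the control-labelled libraries, with the standard error as bars. COL13A1 at -1.42, COL4A5 at -0.66 and COL9A3 at 1.16 have an adjusted p under 0.05 (edgeR with Benjamini-Hochberg adjustment).

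In all, 1 of the 26 collagen genes tested was called higher and 2 were called lower, where 1.01% and 1.36% of all 14860 loci tested were. Without knockout replicate 1, COL9A3 and COL4A1 were called higher and COL13A1 lower. Without control replicate 1 or knockout replicate 3, COL9A3 was called higher and COL13A1 lower. Without control replicate 2, control replicate 3 or knockout replicate 2, 0 were called higher by edgeR and COL13A1 was called lower. The groups were fully separate for 3 genes that were higher and 5 that were lower, against 11.8% and 11.5% of all loci. The 3 were COL9A2, COL9A3 and COL26A1, and the 5 were COL4A5, COL5A2, COL7A1, COL8A1 and COL13A1. The log2 fold change was below 0 for 17 of the 26 genes and above 0 for 9, with a median of -0.10 against 0.01 for all loci tested. By class the median was -0.05 for the fibrillar genes, -0.08 for the basement membrane genes and -0.17 for the others. Without knockout replicate 1 these were 0.02, 0.04 and -0.09, and without control replicate 1 the fibrillar median was 0.01, so the sign of the fibrillar and basement membrane medians rested on single libraries. The median over the collagen genes that each fit tested was below 0 under every alternative tried, with 23 genes where at least 10 counts in every library were asked for and 26 otherwise. The called genes were of low level, between 0.220 and 0.418 CPM per kilobase on average, and the 10 collagen genes with the highest level per length had log2 fold changes between -0.27 and 0.20.

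The abundant collagen genes were also compared library by library. Over the 14 with means of 5 CPM or more, the median log2 deviation from the control mean was 0.07, 0.04 and -0.10 in control-labelled libraries and -0.27, 0.01 and 0.05 in knockout-labelled libraries. By this median knockout replicate 1 was the low one, and knockout replicates 2 and 3 lay within the range of the control libraries. Single genes could lie outside that range in knockout replicates 2 and 3. COL8A1 was at -0.35 and -0.21 and COL7A1 at -0.20 and -0.14, below all control libraries, and COL4A1 was at 0.36 and 0.21, above them. Knockout replicate 1 was the lowest library for 11 of the 26 collagen genes tested, or 42.3%, and for 25.8% of all loci. The deviation of each locus from its mean over the 6 libraries was also set against exon GC content. In knockout replicate 1 this deviation fell by 0.11 on the log2 scale for each 10 percentage points, and in control replicate 3 by 0.10. The other 4 libraries had slopes between 0.04 and 0.06. These slopes are not independent of one another, since the mean covers all 6 libraries. The collagen genes had a median exon GC content of 58.8%, against 48.0% for all loci tested, and the part of GC content in their levels was tested only through the correction above.

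**Figure D5:**
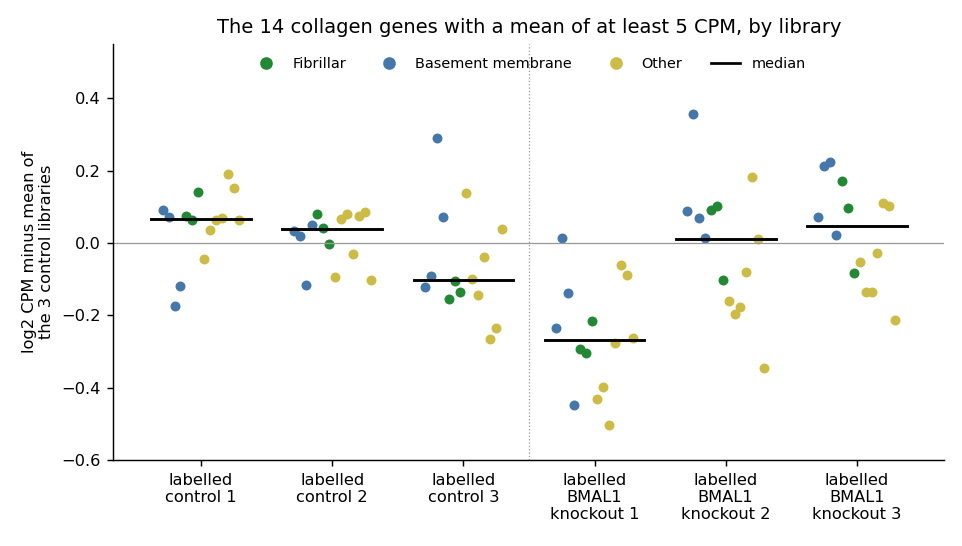
Log2 CPM of the 14 collagen genes whose mean was 5 CPM or more in each library, minus the mean of the 3 control libraries. Each point is a gene, coloured by class, and the bar is the median, which is -0.27 in knockout replicate 1 and between -0.10 and 0.07 in the other 5 libraries.

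Start-site windows were compared across the collagen genes. RefSeq windows on GRCh38.p14 were found for 32 of the 44 genes and for 21 of the 26 tested, in 27 windows, and COL1A1, COL5A2, COL6A1, COL8A1 and COL9A3 had none. The 250 bases before each start were searched on both strands for 4 motifs. CACGTG, the E-box letters that BMAL1 with CLOCK is known to bind, was in 0 of the 27 windows and in 6.35% of all 35114 windows in the table. GGGCGG was in 19 of the 27, against 42.6% of all windows, CCAAT in 7, against 32.0%, and TATAAA in 5, against 10.7%. Genes with several start sites count more than once, and the matches are descriptions of these letters alone.

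Genes that make, process and bind collagen were described through 7 lists with 72 genes, of which 60 were tested. In these, 0 were called higher and 2 were called lower by edgeR, against the shares of all loci given above. At an unadjusted p under 0.05, 6 were higher and 9 lower, against 1353 and 1153 of all 14860 loci. DESeq2 called 2 higher and 4 lower, against 256 and 379 of all loci, and edgeR with the GC trend removed called 3 and 6, against 469 and 568. Without control replicate 1 or control replicate 2, 0 were called lower, and without control replicate 3 or knockout replicate 2, 1 was. Without knockout replicate 1, 2 were called higher and 5 lower, and without knockout replicate 3, 1 higher and 3 lower. The counts over all loci moved too, to 67 higher and 75 lower without control replicate 1, 39 and 65 without control replicate 2, 52 and 78 without control replicate 3, 323 and 360 without knockout replicate 1, 56 and 86 without knockout replicate 2, and 103 and 146 without knockout replicate 3. The median log2 fold change of the 60 was -0.01.

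HSPA5, the abundant chaperone of the endoplasmic reticulum that binds unfolded procollagen, was downregulated. It was measured at 1973, 1956 and 1756 CPM in control-labelled libraries and 1371, 1385 and 1353 CPM in knockout-labelled libraries, without overlap (log2 fold change -0.47, standard error 0.07, edgeR Benjamini-Hochberg adjusted p = 0.00722). The call was lost without control replicate 1 (edgeR Benjamini-Hochberg adjusted p = 0.0526) or control replicate 2 (adjusted p = 0.0718), and over all alternatives the adjusted p lay between 1.86e-08 and 0.0718. The other abundant genes of the chaperone list, PDIA3 and KDELR2, had log2 fold changes of -0.07 (standard error 0.07) and -0.05 (standard error 0.07).

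THBS1, a matrix protein that binds collagen and activates TGF-beta, was downregulated as well. It was measured at 269, 256 and 264 CPM against 184, 200 and 205 CPM, without overlap (log2 fold change -0.42, standard error 0.07, edgeR Benjamini-Hochberg adjusted p = 0.0127). The call was lost without control replicate 1 (edgeR Benjamini-Hochberg adjusted p = 0.0695), control replicate 2 (0.0671), control replicate 3 (0.0536) or knockout replicate 2 (0.0502), and over all alternatives the adjusted p lay between 1.60e-06 and 0.0695. THBS1 overlaps FSIP1 and an antisense transcript. FN1, the fibronectin gene, had the highest level in CPM of the 72 genes, at a mean of 3767, and missed the threshold (log2 fold change -0.38, standard error 0.09, edgeR Benjamini-Hochberg adjusted p = 0.0573). It was called lower by DESeq2 (Benjamini-Hochberg adjusted p = 0.00284), and by edgeR with the GC trend removed (0.0369), with the GC trend removed and the replicate block together (0.0348), without knockout replicate 1 (0.0229) and without knockout replicate 3 (0.0259), within a range up to 0.188. SPARC, a chaperone-like collagen binder, had a log2 fold change of -0.01 (standard error 0.08). The proteoglycan genes DCN, BGN and LUM, which bind type I fibrils, were at 0 in all 6 libraries.

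In the other 5 lists, 15 modifying enzymes, 7 propeptide cleavage, 6 crosslinking, 6 degradation and 7 receptor genes were tested. Of these, 0 had an adjusted p under 0.05 by edgeR. At an unadjusted p under 0.05, 6 were higher and 5 lower, where 1353 and 1153 of all 14860 loci were. Among the modifying enzymes, P4HB, a subunit of the prolyl hydroxylase, PLOD2, a lysyl hydroxylase, and PPIB, a proline isomerase, had log2 fold changes of -0.12, -0.05 and -0.11, and P4HA1, the catalytic subunit, had 0.39. For propeptide cleavage, BMP1 and ADAMTS2, which trim the C- and N-propeptides, had 0.14 and 0.41, and ADAMTS3 had 0.04. TLL2 and PCOLCE2 had 0.76 and 0.38, with edgeR Benjamini-Hochberg adjusted p of 0.129 and 0.177. Of the 7 tested in this list, 3 were higher and 0 lower at an unadjusted p under 0.05. The log2 fold change was above 0 for 6 and below 0 for 1, against 7773 and 7087 of all loci. For crosslinking, PXDN, which links type IV networks, had 0.05, and the lysyl oxidases LOXL2, LOX and LOXL4 had -0.32, -0.24 and 0.62. P4HA1, LOXL4, TLL2 and PCOLCE2 were named after their values were seen. For degradation, CTSB, MMP14 and the collagen uptake receptor MRC2 had -0.20, -0.07 and -0.01. Among the receptors, ITGB1, the beta chain of the collagen-binding integrins, DDR1 and ADGRG1 had -0.05, 0.16 and 0.08. With all libraries, the edgeR Benjamini-Hochberg adjusted p of the genes named here was lowest for ADAMTS2 (0.0685), P4HA1 (0.0763), LOXL4 (0.0797) and LOXL2 (0.0835).

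Leaving out 1 library moved several of these values. The log2 fold change then ran from -0.17 to -0.06 for P4HB, -0.19 to -0.06 for PPIB, 0.25 to 0.48 for P4HA1, 0.06 to 0.24 for BMP1, -0.13 to -0.00 for MMP14, 0.03 to 0.29 for DDR1 and 0.01 to 0.14 for ADGRG1, and among the chaperones from -0.07 to -0.01 for KDELR2. The signs of PLOD2, ADAMTS3, PXDN, MRC2 and ITGB1 turned.

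Some alternatives called genes of these 5 lists, and the values that follow are those of the genes named above, not of every gene called. With the GC trend removed, edgeR's Benjamini-Hochberg adjusted p was 0.00770 for ADAMTS2, 0.0211 for P4HA1, 0.0217 for LOXL4, 0.0150 for LOXL2 and 0.0295 for LOX. These 5 were also called with the replicate block added. DESeq2 called ADAMTS2, P4HA1 and LOXL2 (Benjamini-Hochberg adjusted p of 0.0182, 0.0182 and 0.0145). By edgeR without knockout replicate 1, ADAMTS2 (adjusted p = 0.0426), LOXL4 (0.0365) and LOXL2 (0.0492) were called, and without knockout replicate 3, P4HA1 was (0.0408). P4HA1 was also called with library size only (0.0493). The highest adjusted p over the alternatives was 0.197 for ADAMTS2, 0.257 for P4HA1, 0.239 for LOXL4, 0.268 for LOXL2 and 0.513 for LOX.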

How the data were processed

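The authors trimmed and filtered the reads, aligned them to hg38 and deposited, for each library, raw gene counts from reads with a unique alignment, as whole numbers that are not normalized. The submitters' processing notes name fastp 0.20.1 and HISAT2 2.0.4, with fastp named for mapping and HISAT2 for counting. The annotation and strand setting are not given in the sources used here. Of the 22354 loci, 2310 are assembled from reads without a gene name, and 19993 matched one gene of GENCODE 44, which gave coordinates, exon lengths, GC content and overlaps. Groups came from the sample titles. Counts were analysed with edgeR 4.0.16 in R 4.3.3 (TMM, default filter, robust quasi-likelihood test, 2-sided), with the Benjamini-Hochberg adjustment over the 14860 loci tested. Levels between genes were compared per length of all annotated exons. This length can exceed that of the transcripts present, so the order of genes and the size of chain ratios depend on the annotation. Differences between groups do not use it. Chain ratios were tested with an exact permutation test, and 2 of the 7 pairs, COL4A3/COL4A4 and COL9A2/COL9A3, were added after the values were seen. The steps were tested on simulated data. Alternatives were other scalings and filters, DESeq2 1.42.0, limma-voom 3.58.1, a replicate block, removal of the GC trend, thinning, each library left out, and the threshold of a fold change over 2 with an unadjusted p under 0.01. The members and lists were chosen with earlier results of these data known. By rule, collagen genes named were those with an adjusted p under 0.05 or a mean of at least 5 CPM and their partner chains. Of the 7 other lists the rule took those with an adjusted p under 0.05 and the 3 most abundant. Named outside this rule were COL2A1, COL3A1, COL6A6, COL15A1, COL17A1, COL22A1 and COL26A1, and from the lists P4HA1, LOXL4, TLL2, PCOLCE2, DCN, BGN and LUM. In every library more loci had a count of 2 than of 1 (518 against 178 in control replicate 1). Single counts may therefore not be independent fragments, and limits at 0 cover counting error only. Intervals of fold changes rest on the spread between libraries as well. Cell type markers were 6 lists of 42 genes, and single values of some of these genes are not reported here.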

Additional observations from a re-analysis of the deposited data

How the results depend on the processing

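At 3 libraries a group, fits without 1 of the libraries called 0 to 2 collagen genes higher and 1 lower, COL13A1 in every one, against 1 and 2 with all libraries, while over all loci they called 39 to 323 higher and 65 to 360 lower. For genes called lower, 1 remained with limma-voom, with the replicate block, after thinning to the smallest total and with a fold change over 2 and unadjusted p under 0.01, and 4 were called after removal of the GC trend, with or without the replicate block; the cause was not tested. The replicate numbers did not pair the libraries (correlations of -0.12, -0.02 and -0.03 between same-numbered libraries), and the block gave 97 loci higher and 119 lower over the whole table, against 150 and 202. DESeq2 gave 256 and 379, removal of the GC trend 469 and 568, and that removal with the block 328 and 444. With limma-voom the counts over all loci were 102 and 153, and after thinning 160 and 178. A fold change over 2 with an unadjusted p under 0.01 gave 84 and 52. Dispersions estimated beforehand, chosen after seeing the data, called the same 3 collagen genes. The median log2 fold change of the collagen genes stayed between -0.12 and -0.05, and the difference in their share of counts between -0.0235 and 0.0127 percentage points.

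Signs turned only for genes without a call, and the cause was not tested. With library size only, the log2 fold change was 0.00918 for COL4A2, 0.0297 for COL1A1, 0.00456 for COL5A1, 0.0157 for MRC2 and 0.0189 for SPARC. COL1A1 was at 0.00321 with no filter, 0.00240 with at least 10 counts in every library and 0.00127 after thinning. With the GC trend removed, COL1A1 was at 0.0175, MRC2 at 0.00644 and SPARC at 0.00144, and with the block added COL1A1 was at 0.0123 and MRC2 at 0.00531. COL6A2 was at -0.000421 with median-of-ratios factors and -0.000751 with DESeq2, and COL5A3 at -0.00725 with limma-voom and -0.0363 after thinning. With one library left out, the log2 fold change ran from -0.0772 to 0.0759 for COL4A2, -0.0523 to 0.21 for COL4A4, -0.22 to 0.0129 for COL4A3, -0.0935 to 0.13 for COL1A1, -0.0925 to 0.10 for COL5A1 and -0.0515 to 0.16 for COL6A1. It ran from -0.10 to 0.0768 for COL6A2, -0.11 to 0.22 for COL5A3, -0.0686 to 0.61 for COL8A2, -0.0179 to 0.16 for PXDN, -0.0938 to 0.0604 for MRC2, -0.0540 to 0.0679 for SPARC, -0.11 to 0.0783 for PLOD2, -0.0827 to 0.22 for ADAMTS3 and -0.13 to 0.00503 for ITGB1.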

Other observations

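Levels of cell type markers were measured in the same libraries, and their part in the collagen results was not tested. The summed level of the 7 epithelial markers was 2989, 3044 and 2897 CPM in control-labelled libraries and 2540, 2482 and 2563 CPM in knockout-labelled libraries. KRT8 was the most abundant. Of the 6 tested, KRT8 and KRT18 had log2 fold changes below 0 and KRT7, KRT19, CLDN4 and EPCAM above 0 (0.10, 0.23, 0.60 and 1.55, without a call), and KRT18 was called lower (log2 fold change -0.50, standard error 0.08, edgeR Benjamini-Hochberg adjusted p = 0.00587). KRT18 and KRT8 overlap on opposite strands, and the strand of counting is not given in the sources used here. EPCAM and CDH1, which define most epithelia, had 53 and 54 counts over the 6 libraries.

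The 9 thyroid markers, led by PAX8, summed to 182, 182 and 211 CPM against 141, 158 and 183 CPM, with 3 tested. By edgeR 0 of these were called, and 2 had an unadjusted p under 0.05, both lower. Of all 14860 loci, 150 were called higher and 202 lower, and 1353 and 1153 had an unadjusted p under 0.05. The 9 fibroblast markers summed to 21.5, 21.4 and 21.6 CPM against 20.8, 24.2 and 26.2 CPM, and 4 of them were at 0. By edgeR 0 of the 3 tested were called, and 0 had an unadjusted p under 0.05. The 6 smooth muscle and pericyte markers summed to 8.08, 8.15 and 8.32 CPM against 10.4, 10.1 and 9.50 CPM, led by RGS5, which was lower in all 3 knockout-labelled libraries without a call (log2 fold change -0.13, standard error 0.14), and ACTA2 was called higher (log2 fold change 0.95, standard error 0.18, edgeR Benjamini-Hochberg adjusted p = 0.0183). Exons of ACTA2 overlap FAS and an antisense transcript on the opposite strand.

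The 5 endothelial markers, led by VWF, summed to 2.05, 2.02 and 2.28 CPM against 1.50, 1.24 and 1.71 CPM, and 0 of the 2 tested were called by edgeR or had an unadjusted p under 0.05. The 6 immune markers, led by CD68, summed to 19.3, 19.9 and 17.9 CPM against 14.2, 12.5 and 13.1 CPM. CD3E was at 0 in all 6 libraries, CD14 and CD68 had log2 fold changes of 0.97 and -0.27 without a call, and PTPRC was called lower (log2 fold change -1.42, standard error 0.15, edgeR Benjamini-Hochberg adjusted p = 0.00106).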
